A study of Mus musculus with 20 samples.

Results

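The genes described here are the 9 ligand genes of the TGF-beta, activin and myostatin branches: *Tgfb1*, *Tgfb2*, *Tgfb3*, *Inha*, *Inhba*, *Inhbb*, *Mstn*, *Gdf11* and *Gdf10*. They were taken by symbol from the 43280 gene symbols in the count tables, whatever their expression. RNA-seq was available for 8 embryonic and 4 adult mouse libraries, and accessible regions came as 4 lists of ATAC-seq peaks, 1 for each embryonic condition. All embryonic cells were GFP+ cells sorted at E13.5, a day of mid-gestation, from mice of the labelled strain C57BL/6. The reporting summary of the study instead gives mixed strain backgrounds for the floxed *Eed* and reporter lines. The controls carried Bapx1-cre and the Rosa26mTmG reporter, and the *Eed* KO embryos carried Eedfl/fl with the same Cre and reporter, so every embryonic library comes from Cre-bearing cells. There were 2 libraries from each of the control intestine, *Eed* KO intestine, control stomach and *Eed* KO stomach. Bapx1-cre marks cells that express *Bapx1* (listed as *Nkx3-2*) and their descendants, which limits these data to that lineage. The adult libraries were 2 labelled WT and 2 labelled EED-KO intestinal mesenchyme. By the methods of the study these were GFP+ stromal cells sorted from the small intestine of mice about 10 weeks old, given tamoxifen for 5 days and dissected 2 days later. Both adult genotypes carried *Pdgfrb* Cre-ERT2/+ and Rosa26mTmG, and the EED-KO mice *Eed* fl/fl as well, while the labels themselves name no adult allele. *Pdgfrb* marks pericytes and other stromal cells, so not every mesenchymal cell is targeted. *Eed* encodes a core subunit of PRC2, the complex that places the repressive mark H3K27me3.

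Ligands of this family are secreted dimers that bind paired serine/threonine kinase receptors, which phosphorylate *Smad2* and *Smad3*. TGF-beta is held latent in the matrix until it is released. Activins are dimers of the beta subunits encoded by *Inhba* and *Inhbb*, and inhibins pair a beta subunit with the alpha subunit encoded by *Inha* and oppose activin. Myostatin (*Mstn*) restrains skeletal muscle growth, *Gdf11* is its close relative with roles in axial patterning, and *Gdf10* is a relative of *Bmp3*. In gut mesenchyme the pathway is known for its part in smooth muscle and fibroblast differentiation.

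Gene counts per library ran from 30236159 to 39606157 in the embryo and from 11404712 to 15903642 in the adult. A count of 0 allows up to 0.07575 to 0.0992 CPM (counts scaled to library size, by the TMM method elsewhere in the text) in the embryonic libraries and 0.189 to 0.263 CPM in the adult libraries, limits that cover counting error only. The targeted gene behaved differently in the embryonic and adult sets. *Eed* was at 40.1 and 41.5 CPM in the control stomach and 11.45 and 7.41 CPM in the *Eed* KO stomach (log2 fold change -2.11 ± 0.21 (SE), adjusted p = 0.00175 by edgeR's quasi-likelihood test). Intestine values were 38.1 and 40.15 CPM in the controls against 10.7 and 8.59 CPM in the *Eed* KO (-2.02 ± 0.21, adjusted p = 0.00464 by edgeR). In the adult it was at 29.7 and 33.4 CPM in the libraries labelled WT and 25.7 and 25.05 CPM in those labelled EED-KO (-0.32 ± 0.21, adjusted p = 0.317 by edgeR), so the adult label was not borne out by the *Eed* transcript, and adult groups are named by their labels. Counts per gene also hold the exons outside the deleted part, and the adult groups differed in leukocyte markers, as described below. The study also measured *Eed* deletion efficiency in isolated adult pericryptal cells, which was not re-examined here. Mesenchyme markers (9 listed, 8 in the tables) were all above 1 CPM in every embryonic group, and 6 of the 8 were in each adult group. All p-values rest on 2 libraries a group, and an exact permutation test of 2 against 2 could not go below 0.333.

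Expressed per length as TPM (transcript abundance scaled by the union exon length of each gene), the ligand genes spanned a wide range. In the control intestine *Gdf10* (84.2 ± 1.8 TPM, SD, n = 2) and *Tgfb3* (67.15 ± 9.5) were the most abundant, followed by *Tgfb2* (20.3 ± 4.7), *Tgfb1* (14.9 ± 3.1) and *Gdf11* (14.8 ± 0.090). Neighbours in this last trio overlapped between libraries. *Inha* (5.96 ± 0.89), *Inhba* (3.18 ± 1.1) and *Inhbb* (0.248 ± 0.30) were lower, and *Mstn* was lowest at 0.0342 ± 0.0051 TPM. In the control stomach *Tgfb3* (96.7 ± 0.44) and *Tgfb2* (72.3 ± 2.9) led, and *Tgfb2* overlapped with *Gdf10* (67.5 ± 29.5), whose libraries read 88.3 and 46.6 TPM. The adult control libraries, prepared with another kit and without strand, are set beside these with no test. There *Tgfb3* (69.8 ± 7.3) and *Tgfb2* (66.6 ± 1.5) were again the highest, *Inhba* was next at 16.3 ± 7.7, *Gdf10* was at 2.51 ± 2.1, *Tgfb1* was at 0.513 ± 0.43 and *Mstn* had no count in any of the 4 adult libraries.

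**Figure D1:**
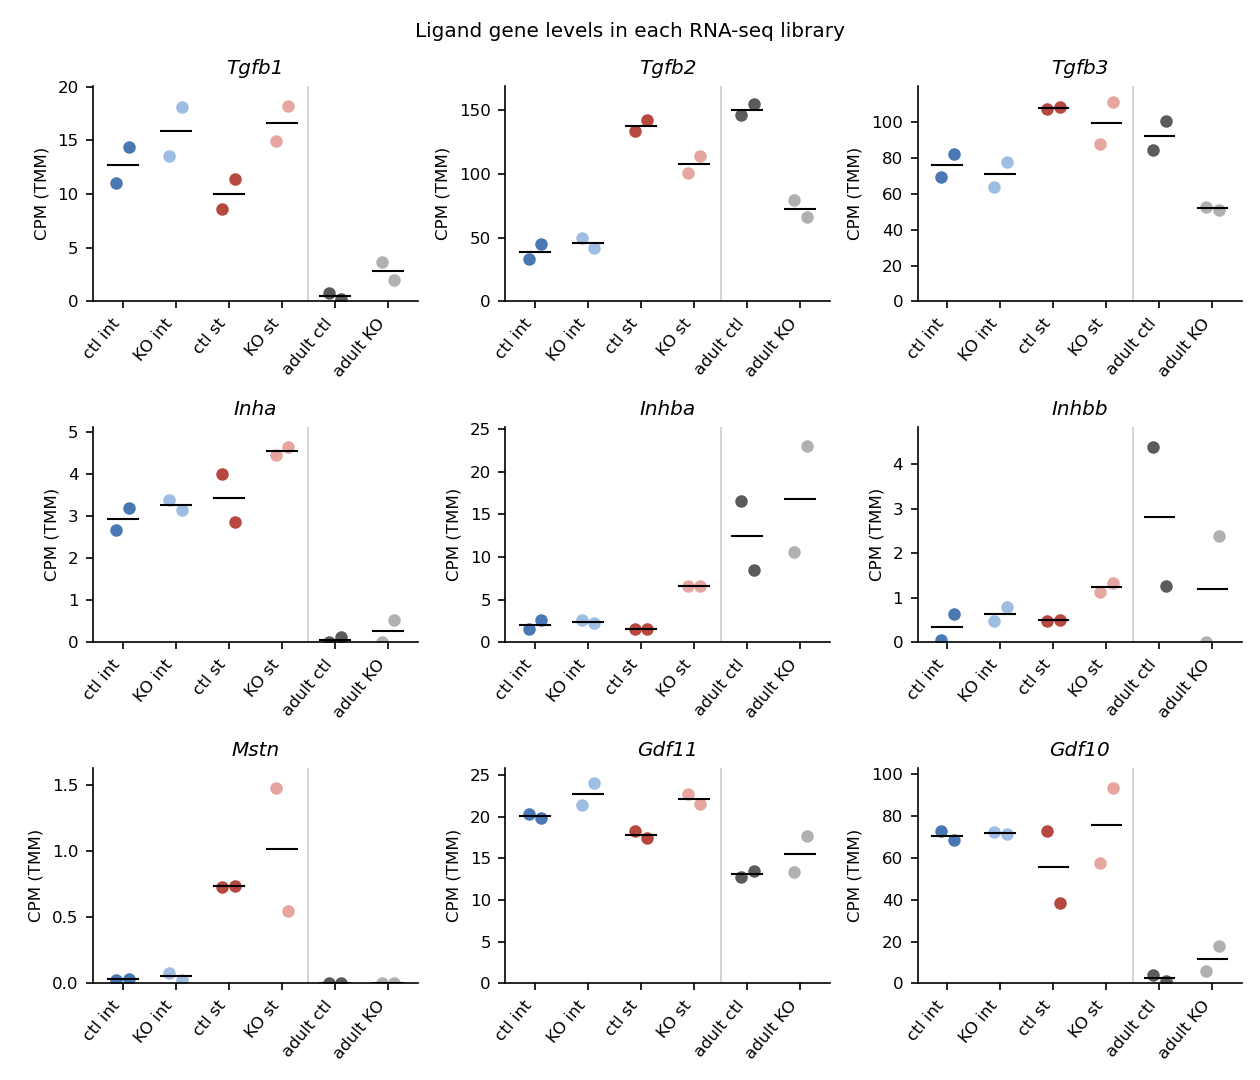
Level of each ligand gene in every RNA-seq library, as CPM after TMM scaling on linear axes from 0. Points are libraries, horizontal lines are the means of 2 libraries, and the groups are control (ctl) and *Eed* KO (KO) intestine (int) and stomach (st) at E13.5 and adult intestine. *Tgfb2* lies at 134 and 142 CPM in the control stomach against 33.3 and 45.0 in the control intestine, *Inhba* lies apart in the *Eed* KO stomach, and *Mstn* is near 0 outside the stomach.

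The comparison of the control organs asked which ligand genes differ between stomach and intestine mesenchyme. Of the 9 genes, all passed the filter on low counts and 2 were differentially expressed genes (DEGs, called at an adjusted p below 0.05 where the fold change exceeded 2-fold, that is 1 on the log2 scale, either way), *Tgfb2* and *Mstn*, both higher in the stomach. Over all 16218 genes tested, 5.07% were DEGs in this comparison. In bulk RNA, fewer cells of a type and less RNA per cell cannot be told apart.

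*Tgfb2* encodes the TGF-beta ligand with prominent roles in the development of the heart, palate and other mesenchymal tissues. The gene spans chr1:186622792-186705989 on the minus strand (mm10, GENCODE vM4). Its counts were 1185 and 1338 in control intestine libraries against 4616 and 5569 in control stomach libraries, or 33.3 and 45.0 against 134 and 142 CPM. The lowest stomach library was thus well above the highest intestine library. The log2 fold change of intestine over stomach was -1.82 ± 0.16 (SE), a 3.52-fold difference, with an adjusted p of 0.00099 by edgeR. In the *Eed* KO organs the gap was narrower, with 49.55 and 41.9 CPM in the intestine against 101 and 114 CPM in the stomach (-1.23 ± 0.16, adjusted p = 0.00592 by edgeR). Both calls held without any 1 of the compared libraries, and neither passed under spike-in scaling (adjusted p = 0.986 and 1), where the log2 fold changes were -1.545 and -1.57. Of the order over the 4 groups, the control stomach, *Eed* KO stomach and the 2 intestine groups were separate, and the intestine groups overlapped. The narrowing itself, tested as the interaction of organ and genotype, did not pass (log2 difference -0.59 ± 0.22, adjusted p = 0.770 by edgeR). *Wt1*, the mesothelial transcription factor and 1 of 4 mesothelium markers, was also lower in the control intestine (log2 fold change -1.04 ± 0.19, adjusted p = 0.0185 by edgeR). The summed mesothelium markers were 292 and 446 CPM for control intestine, against 484 and 505 for control stomach. Of 7 epithelium markers 2 were lower in the control intestine, *Epcam* (-1.83) and *Cldn4* (-2.15), as was 1 of 8 mesenchyme markers, *Twist1* (-1.04). The list medians were -0.46 for mesothelium, -0.41 for epithelium and 0.05 for mesenchyme. Members of each list also read higher in the control intestine without passing, among them *Msln* (2.13), *Vil1* (1.24) and *Nkx3-2* (0.57). The part of such cells in the *Tgfb2* difference was not tested.

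The other TGF-beta ligands differed less between the control organs. *Tgfb3* read 69.4 and 82.2 CPM in the intestine against 107 and 108 for the stomach, without overlap, but did not pass (-0.51 ± 0.15, adjusted p = 0.110 by edgeR). *Tgfb1* read 11.01 and 14.4 CPM in the intestine against 8.61 and 11.4 for the stomach, with overlap (0.34 ± 0.23, adjusted p = 0.562). The makeup of the ligand pool therefore read differently by organ. Of the summed TPM of the 3 genes, *Tgfb2* made up 18.8% and 20.6% in the control intestine against 39.7% and 40.2% for the control stomach. *Tgfb1* made up 14.1% and 14.9% in the control intestine against 5.79% and 7.32% for the control stomach. In the *Eed* KO organs the *Tgfb2* share was 26.2% and 19.4% for intestine against 35.4% and 33.0% for stomach, and the *Tgfb1* share was 11.9% in each *Eed* KO stomach library. No test was run on these shares, which move together by construction.

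**Figure D2:**
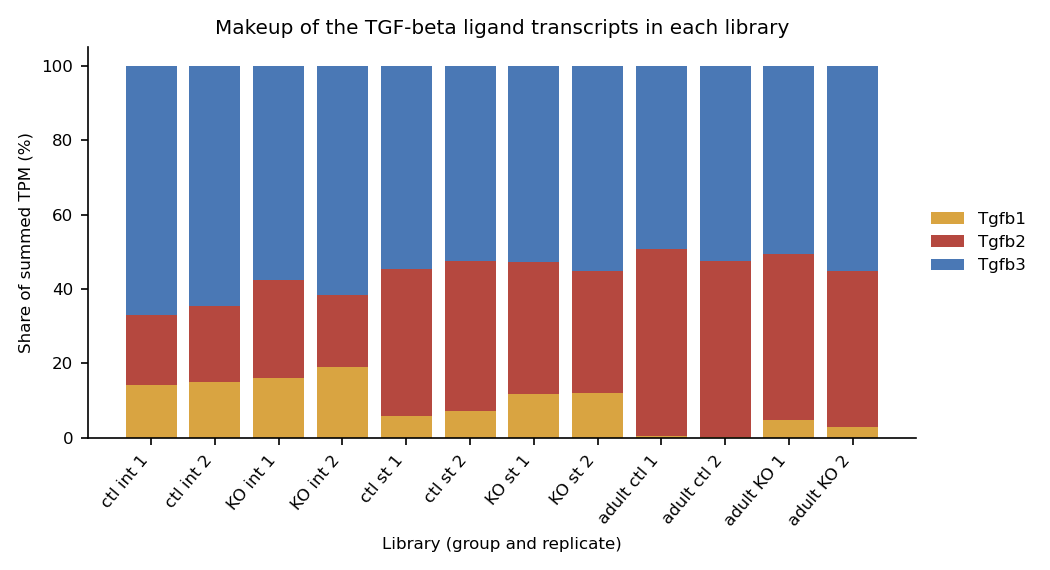
Share of *Tgfb1*, *Tgfb2* and *Tgfb3* in their summed TPM, in percent, for each of the 12 RNA-seq libraries (ctl, control; KO, *Eed* KO; int, intestine; st, stomach; the last digit is the replicate). *Tgfb2* takes 18.8% to 26.2% of the pool in the 4 embryonic intestine libraries and 33.0% to 40.2% in the 4 stomach libraries, and *Tgfb1* takes at most 4.72% in the adult libraries.

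The promoter of *Tgfb2* is shown because its RNA differed between the organs while its start lay in a peak in every list. The sequence is the 250 bases before the annotated start, from the RefSeq promoter table (GRCm38.p6), chr1:186705990-186706239 on the minus strand, read 5′ to 3′. Capitals mark the matches found, a TATA box core (TATAAA) 31 bases before the start and a pair of SMAD-binding cores (GTCTG or its reverse complement).
Tgfb2 promoter: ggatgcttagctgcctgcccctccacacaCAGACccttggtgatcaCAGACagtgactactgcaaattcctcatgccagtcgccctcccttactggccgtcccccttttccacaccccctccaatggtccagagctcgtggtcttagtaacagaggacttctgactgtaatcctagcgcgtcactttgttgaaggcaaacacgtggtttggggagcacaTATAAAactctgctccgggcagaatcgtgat
Over all 32851 promoters of this length, 12.4% held the TATA core and 42.2% the SMAD-binding core, on either strand. Such a match is a description of the letters and shows no binding.

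The peak at the *Tgfb2* start ran from 224 to 248 bases upstream to 1641 to 1710 bases downstream in the 4 lists. Its fold enrichment over background was 4.74 in the control intestine, 4.49 in the *Eed* KO intestine, 4.59 in the control stomach and 4.36 in the *Eed* KO stomach, with -log10 q of 28.2 to 31.2. These values were close to each other, and with 1 pooled list a condition no test is possible. Within 50 kb of the start there were 13 regions after merging the lists, of which 7 were in all 4 lists. Of the 13, 1 was in both stomach lists and neither intestine list, as were 2 regions near *Tgfb1*, 1 near *Tgfb3* and 1 near *Inhba*. No such region was near *Mstn*, and the share over all genes was not computed. The *Tgfb2* region lay at chr1:186692049-186692634, 13648 bases downstream of the start in the gene body and over no annotated exon (GENCODE vM21). Its fold enrichments were 3.92 in the control stomach and 4.39 in the *Eed* KO stomach. The central 300 bases (chr1:186692192-186692491, minus strand) are shown because the region is in the stomach lists alone, from the same genome build, with motif matches in capitals.
Tgfb2 stomach region: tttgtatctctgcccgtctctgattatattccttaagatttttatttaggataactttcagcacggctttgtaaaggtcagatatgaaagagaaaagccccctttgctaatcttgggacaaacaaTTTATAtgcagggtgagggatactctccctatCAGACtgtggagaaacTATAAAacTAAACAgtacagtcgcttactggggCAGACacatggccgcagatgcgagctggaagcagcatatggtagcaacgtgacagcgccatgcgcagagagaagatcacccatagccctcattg
The capitals are a pair of TATA cores, of which 1 is on the other strand, a pair of SMAD-binding cores and a forkhead core (TGTTTA). In the central 300 bases of the 82182 control stomach peaks at least that long, 15.6%, 55.4% and 21.2% held these motifs.

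*Mstn* spans chr1:53061640-53068079 on the plus strand. It had counts of 1 and 1 in the control intestine against 25 and 29 in the control stomach, and 3 and 1 counts in the *Eed* KO intestine against 55 and 20 in the *Eed* KO stomach. These are low levels, 0.725 and 0.739 CPM in the control stomach and 1.475 and 0.549 in the *Eed* KO stomach, yet no intestine library reached 0.0792 CPM. The ratio of stomach to intestine was 23.9 in the controls (95% exact counting interval 6.31 to 203) and 18.6 in the *Eed* KO (6.95 to 69.9). By edgeR, the log2 fold change of intestine over stomach was -4.43 ± 0.81 (adjusted p = 0.0185) in the controls and -4.13 ± 0.70 (adjusted p = 0.0156) in the *Eed* KO. Over all genes, 4.40% were DEGs between the *Eed* KO organs. The call in the controls was lost when any 1 of the 4 libraries was left out (adjusted p = 0.0698 to 0.159 by edgeR), with the log2 fold change staying between -4.54 and -4.30. In the *Eed* KO it was lost without either intestine library or stomach replicate 1 (adjusted p = 0.0517 to 0.0708) and with only the *Eed* KO libraries fitted (0.0783). Between genotypes *Mstn* did not pass in the stomach (0.47 ± 0.48, adjusted p = 0.614) or the intestine (0.77 ± 1.2, adjusted p = 0.903).

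Muscle genes were read beside *Mstn* because it is best known from skeletal muscle. Of 6 skeletal muscle markers, 4 passed the filter and 1 was a DEG between the control organs, *Myf5*, a myogenic determination factor. Its counts were 2 and 0 in control intestine libraries against 15 and 20 in control stomach libraries (log2 fold change -3.81 ± 0.74, adjusted p = 0.0230 by edgeR). *Myod1*, another myogenic factor, was at 0.290 and 0.1785 CPM in the control stomach and 1.96 and 1.23 CPM in the *Eed* KO stomach (2.77 ± 0.40, adjusted p = 0.00799 by edgeR). It was also lower in the *Eed* KO intestine than in the *Eed* KO stomach, at 0.396 and 0.371 CPM (-2.05 ± 0.38, adjusted p = 0.0206 by edgeR). *Ckm*, the muscle creatine kinase, had no count in any embryonic library, and the summed markers stayed between 1.60 and 3.46 CPM. Between the control organs *Mylpf* read higher in the intestine (1.10), and *Tnnt3* (-0.22) and *Myod1* (-0.74) read lower, without passing. The summed markers there were 1.63 and 1.65 CPM in the intestine against 1.97 and 2.09 in the stomach. The part of such cells in the *Mstn* difference was not tested.

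The *Mstn* promoter is shown because its RNA set the organs apart most widely. Matches are in capitals over the 250 bases at chr1:53061390-53061639, plus strand. They are an AP-1-like match (TGAATCA) 170 bases before the start, a TATA core 29 bases before it and a pair of SMAD-binding cores. The AP-1 pattern searched, TGANTCA, allowed any base at its centre.
Mstn promoter: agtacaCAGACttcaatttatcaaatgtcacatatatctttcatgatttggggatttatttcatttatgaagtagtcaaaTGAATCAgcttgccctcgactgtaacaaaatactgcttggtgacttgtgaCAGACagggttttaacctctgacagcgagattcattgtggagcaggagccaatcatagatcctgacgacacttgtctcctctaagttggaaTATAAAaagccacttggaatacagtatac
A match to this loose AP-1 pattern was in 6.75% of all promoters. By -log10 q, *Mstn* had the weakest promoter peaks of the 9 genes in every list, with a highest value of 3.71 in the control intestine, 2.24 in the *Eed* KO intestine, 5.97 in the control stomach and 5.21 in the *Eed* KO stomach. The median over all genes with a promoter peak was 44.0 to 51.5. A peak covered the *Mstn* start itself only in the *Eed* KO stomach list, and in the other 3 the nearest edge was 273 to 381 bases downstream.

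In the stomach, loss of *Eed* left 8 of the 9 genes short of the thresholds and raised 1, *Inhba*, against 5.65% of all genes tested. *Inhba*, the beta A subunit of activin, had 54 and 63 counts in the control stomach and 245 and 242 in the *Eed* KO stomach, or 1.57 and 1.61 against 6.57 and 6.64 CPM. The libraries of a group nearly coincided and the groups were far apart. The log2 fold change was 2.06 ± 0.25 (4.16-fold) with an adjusted p of 0.00418 by edgeR, and the call held without any 1 of the 4 libraries (adjusted p = 0.0183 to 0.0456). In the intestine *Inhba* read 1.60 and 2.59 CPM in the controls and 2.59 and 2.28 in the *Eed* KO, which overlapped (0.22 ± 0.25, adjusted p = 0.849 by edgeR). The change was thus past the threshold in the stomach and not in the intestine. The test of that difference, the interaction of organ and genotype, gave a log2 difference of 1.83 ± 0.36 with an adjusted p of 0.204 by edgeR, just outside its threshold of 0.2. Over all genes 0.462% passed the interaction. DESeq2 put this difference inside the threshold (1.84, adjusted p = 0.00561), and over 15 alternatives 7 did so, with adjusted p from 0.00561 to 0.926. Between the *Eed* KO organs *Inhba* was lower in the intestine (-1.44 ± 0.25, adjusted p = 0.0162 by edgeR), a call lost without any 1 of the 4 libraries (adjusted p = 0.0519 to 0.0833).

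Other cell types moved with the *Eed* KO in the stomach. Of 8 endothelium markers, 4 rose (*Pecam1*, *Cdh5*, *Tie1* and *Emcn*), and the sum of all 8 went from 24.7 and 23.2 CPM in the controls to 36.5 and 57.2 CPM. In the intestine, where *Inhba* did not pass, 3 rose, with sums of 22.9 and 27.8 CPM in the controls and 62.0 and 60.4 in the *Eed* KO. The glial marker *S100b* and the myogenic factor *Myod1* also rose in the *Eed* KO stomach (2.24 and 2.77). Of the 4 macrophage and leukocyte markers kept, *Lyz2* fell (-1.08), while the list median was 0.22. *Csf1r* (2.74) and *Cd68* (0.98) read higher and *Aif1* (-0.54) lower there, without passing. Of 7 immediate early genes none passed in either organ by edgeR. The part of these cells in the *Inhba* change was not tested.

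The other subunits were read the same way. *Inhbb*, the beta B subunit, read 0.493 and 0.510 CPM in the control stomach and 1.13 and 1.34 in the *Eed* KO stomach, without overlap, but did not pass (1.29 ± 0.68, adjusted p = 0.314 by edgeR). Control intestine libraries held 2 and 19 *Inhbb* counts, a spread that left little power there (0.92 ± 0.77, adjusted p = 0.748). *Inha*, the inhibin alpha subunit, read 4.00 and 2.86 CPM in the control stomach and 4.45 and 4.64 in the *Eed* KO stomach (0.41 ± 0.22, adjusted p = 0.319). In TPM, *Inhba* thus went from below *Inha* in the control stomach (2.43 against 7.06) to a level next to it in the *Eed* KO stomach (10.7 against 9.88). Libraries of the 2 genes did not overlap in either group.

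Among the TGF-beta ligands in the stomach, *Tgfb1* read 8.61 and 11.4 CPM in the controls and 14.9 and 18.2 in the *Eed* KO (0.73 ± 0.22, adjusted p = 0.102 by edgeR). *Tgfb2* read 134 and 142 CPM against 101 and 114 (-0.36 ± 0.16, adjusted p = 0.230). *Tgfb3* overlapped between the genotypes (-0.12 ± 0.15, adjusted p = 0.697). *Gdf11* read 18.2 and 17.5 CPM in the controls and 22.6 and 21.5 in the *Eed* KO (0.31 ± 0.11, adjusted p = 0.149), and *Gdf10* spread widely, at 72.8 and 38.55 CPM in the controls against 57.65 and 93.4 in the *Eed* KO (0.44 ± 0.31, adjusted p = 0.445).

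In the intestine none of the 9 genes was a DEG by edgeR, by DESeq2 or in any other alternative but spike-in scaling, beside 2.61% of all genes. The smallest unadjusted p was 0.151, for *Gdf11*, so none was under 0.05 either. The log2 fold changes ran from -0.10 (*Tgfb3*) to 0.92 (*Inhbb*). *Gdf10* was steady, at 72.7 and 68.35 CPM in the controls and 72.2 and 71.6 in the *Eed* KO (0.03 ± 0.31, adjusted p = 0.989). *Gdf11* read 20.3 and 19.85 CPM in the controls against 21.3 and 24.0 in the *Eed* KO (0.18 ± 0.11, adjusted p = 0.597). These fold changes are relative to the bulk of genes. The spike-in RNA took 0.0720% to 0.110% of counts in the control libraries and 0.0134% to 0.0403% in the *Eed* KO libraries. Scaling to the spike-in raised the median gene by 2.39 on the log2 scale in the stomach and by 1.85 in the intestine, and then 9 and 8 members were called, all higher in the *Eed* KO, *Tgfb2* in the stomach included (2.07). Relative to those shifts *Inhba* changed by 2.06 and 0.20, close to the values above.

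**Figure D3:**
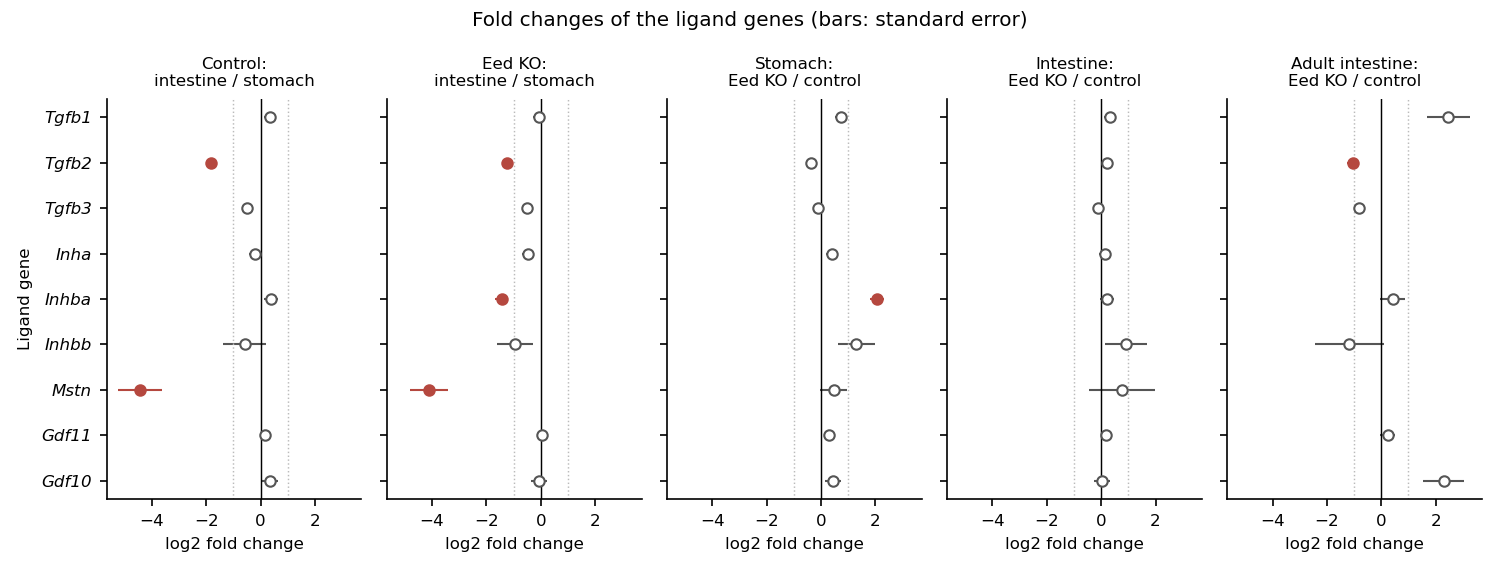
Log2 fold change of each ligand gene in 5 comparisons, with bars for 1 standard error and dotted lines at -1 and 1. Filled points are DEGs by edgeR. *Tgfb2* and *Mstn* lie to the left in both organ comparisons (*Tgfb2* -1.82 and -1.23), *Inhba* lies to the right in the stomach (2.06), no point is filled in the embryonic intestine, and *Inha* and *Mstn* have no adult point because the filter on low counts removed them.

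The *Inhba* gene spans chr13:16011851-16027211 on the plus strand. The 250 bases before its start (chr13:16011601-16011850) are shown because *Inhba* changed between the genotypes, with its TATA core, 91 bases before the start, in capitals. They held 3 CpG dinucleotides, against a median of 6 over all promoters, and 29.0% of promoters had fewer.
Inhba promoter: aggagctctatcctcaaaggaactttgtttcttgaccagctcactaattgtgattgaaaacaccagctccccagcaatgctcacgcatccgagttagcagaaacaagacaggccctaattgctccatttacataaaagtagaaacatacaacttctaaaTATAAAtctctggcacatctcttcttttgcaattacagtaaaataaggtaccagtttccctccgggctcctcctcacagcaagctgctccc
No SMAD-binding core, AP-1, NKX3 (TAAGTG), homeobox (TAATTA) or forkhead match was in this window. *Mstn* also held 3 CpG and *Tgfb2* held 8, while *Tgfb1* and *Inhbb* held 21 each, *Gdf11* held 33 and *Gdf10* held 35. The members whose RNA differed between organs or genotypes in the embryo were thus the less CpG-rich of the 8 matched promoters, along with *Inha* (4 CpG), with no test run on 8 genes. *Tgfb3* was not matched.

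The promoter peak of *Inhba* was in all 4 lists with fold enrichments of 5.99 in the control intestine, 6.29 in the *Eed* KO intestine, 6.71 in the control stomach and 6.15 in the *Eed* KO stomach. Its upstream edge was 20 to 39 bases before the start in 3 lists and 483 bases before it in the *Eed* KO stomach list. Of 6 regions within 50 kb, 1 was in both stomach lists and in neither intestine list. Its centre was at -6127 bases from the start, upstream of the gene, at chr13:16005636-16005812, inside the transcript *B230303A05Rik* but over no exon. The enrichment was 5.36 with a -log10 q of 10.2 in the control stomach and 7.06 with 18.5 in the *Eed* KO stomach. Its 177 bases are shown on the plus strand because the region is in the stomach lists alone, and *Inhba* RNA changed in the stomach.
Inhba stomach region: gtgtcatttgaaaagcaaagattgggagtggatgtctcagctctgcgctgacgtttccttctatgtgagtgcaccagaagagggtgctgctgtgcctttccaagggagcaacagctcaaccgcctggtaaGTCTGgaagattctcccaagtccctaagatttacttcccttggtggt
The capitals mark a SMAD-binding core, which 38.9% of windows of that length at the centre of 102029 control stomach peaks also held. Whether this region acts on *Inhba* was not tested.

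**Figure D4:**
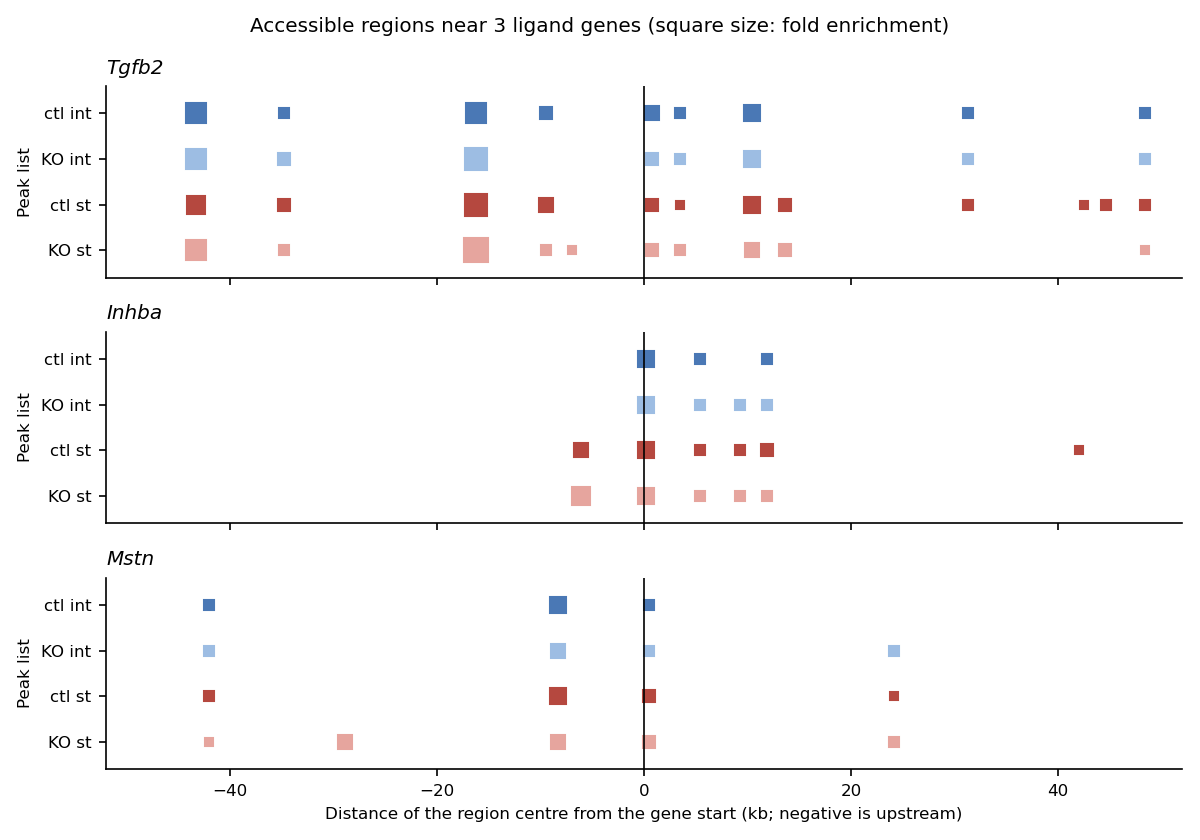
Accessible regions within 50 kb of the starts of *Tgfb2*, *Inhba* and *Mstn* in the 4 pooled ATAC-seq lists (ctl, control; KO, *Eed* KO; int, intestine; st, stomach), by the distance of the merged region's centre from the start in kb. The size of a square follows the fold enrichment. Regions at 13648 bases from the *Tgfb2* start and -6127 bases from the *Inhba* start are in the 2 stomach rows and in neither intestine row.

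All 9 genes had a peak within 1000 bp of the start in each of the 4 lists. Such peaks were also found at 87.8% of the 16216 expressed genes with a usable position in the control intestine, 88.9% in the *Eed* KO intestine, 88.3% in the control stomach and 88.9% in the *Eed* KO stomach, so the members' share is close to the background. The *Inha* peak ended 318 to 338 bases before the GENCODE start in every list. The *Gdf11* peak spanned 1548 and 1735 bp in the control intestine and stomach lists and 3305 and 3382 bp in the *Eed* KO lists. Its enrichment read 4.21 and 3.97 in the controls and 3.37 and 3.29 in the *Eed* KO. Around *Gdf10* there were 7 and 8 peaks within 50 kb in the control intestine and stomach lists and 11 and 14 in the *Eed* KO lists, while the median over all genes went from 7 and 7 to 8 and 8. Around *Inhbb* the numbers were 7 and 9 in the controls and 11 and 13 in the *Eed* KO. Near *Gdf10* and *Inhbb* 3 regions each were in both *Eed* KO lists alone, against 1 near *Inha* and none near the other members. The share of all genes with such regions was not computed. Around *Tgfb3* the numbers went the other way, from 9 and 11 in the controls to 8 and 8, with 1 region in both control lists alone, and around *Tgfb2* from 9 and 12 to 8 and 10. The *Eed* KO lists were also longer, with 119181 and 116842 peaks against 103808 and 115789 in the controls.

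The genes whose pattern over the 8 embryonic libraries was most like each called member were found among 16217 others by the mean absolute difference in centred log2 CPM. For *Tgfb2* they were *Anxa2* (0.090), which encodes a membrane-binding annexin, and *Traf1* (0.099), a signalling adaptor of tumour necrosis factor receptors. *Anxa2* read 84.3 and 126 CPM in the control intestine against 399 and 393 for the control stomach. For *Inhba* they were *Tacr3* (0.19), a tachykinin receptor, and *Bhlha15* (0.21), a helix-loop-helix factor. *Tacr3* read 0.290 and 0.331 CPM in the control stomach and 1.61 and 1.56 in the *Eed* KO stomach. For *Mstn* they were *Ralyl* (0.32), at 0.225 and 0.3365 CPM in the control intestine against 6.75 and 5.25 for the control stomach, and *Kctd8* (0.36), a subunit associated with GABA-B receptors. The libraries share their depth and preparation, and nothing on shared function follows.

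The rest of the pathway was read from 5 lists of receptors, latency and activation genes, extracellular antagonists, intracellular transducers and target genes. Of 9 receptor genes, 1 was a DEG between the control organs, *Eng*, which encodes the co-receptor endoglin. It read 36.4 and 48.9 CPM in the intestine against 12.7 and 16.7 for the stomach (1.53 ± 0.24, adjusted p = 0.0100 by edgeR). The endothelium markers *Pecam1*, *Cdh5* and *Emcn* were also higher and *Esam* lower in the control intestine, while the sum of all 8 was 22.9 and 27.8 CPM there and 24.7 and 23.2 CPM in the control stomach, and the part of such cells was not tested. No receptor gene passed between the genotypes in either embryonic organ, and none of the 9 transducers kept passed in any embryonic comparison. Of the 7 antagonists kept, *Dcn*, which encodes the matrix proteoglycan decorin that binds TGF-beta, was lower in the control intestine at 100.5 and 134.5 CPM against 298 and 525 (-1.81 ± 0.29, adjusted p = 0.00997). *Pcsk5*, a proprotein convertase, was the only DEG of 16 latency and activation genes between the control organs, at 11.8 and 14.3 CPM in the intestine against 36.5 and 46.3 for the stomach (-1.67 ± 0.26, adjusted p = 0.00985). No target gene of the 16 was a DEG there, and the median log2 fold change of the targets was -0.19.

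In the *Eed* KO stomach the antagonists moved in both directions. *Fst*, which encodes follistatin, the binding protein that neutralises activin, fell from 259 and 294 CPM to 94.05 and 70.6 (-1.75 ± 0.31, adjusted p = 0.0168 by edgeR). *Fst* thus fell in the samples in which *Inhba* rose. *Lefty1*, an inhibitor of Nodal signalling, rose from 0.841 and 0.867 CPM to 2.82 and 3.65 (1.92 ± 0.32, adjusted p = 0.0137), and *Ltbp2*, a member of the latent TGF-beta binding protein family, rose from 0.174 and 0.306 CPM to 1.395 and 2.25 (2.89 ± 0.59, adjusted p = 0.0271). Of the 16 target genes 2 rose, and both encode cyclin-dependent kinase inhibitors. *Cdkn2b*, a known PRC2 target, rose from 0.0290 and 0.204 CPM to 3.11 and 4.28 (4.89 ± 0.69, adjusted p = 0.00719), and *Cdkn1a* rose from 3.015 and 3.98 CPM to 9.765 and 12.6 (1.68 ± 0.31, adjusted p = 0.0196). The same pair were the DEGs of the list in the *Eed* KO intestine, where *Cdkn2b* had 0 and 0.0673 CPM in the controls and 1.16 and 2.17 in the *Eed* KO (adjusted p = 0.0228), and *Cdkn1a* went from 1.66 and 1.08 CPM to 4.62 and 7.70 (2.16 ± 0.34, adjusted p = 0.0205). The matrix and contractile targets in the list were not DEGs in either organ, and the list medians were 0.06 in the stomach and 0.15 in the intestine. In the stomach 1 more gene of the target list passed the adjusted p threshold without the fold threshold.

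Between the *Eed* KO organs, 3 targets were higher in the intestine: *Postn*, the matrix protein periostin, at 269 and 423.5 CPM against 70.55 and 134 (1.76 ± 0.37, adjusted p = 0.0335 by edgeR), *Ctgf*, a matricellular growth factor, at 70.5 and 63.4 against 27.98 and 25.01 (1.34 ± 0.15, adjusted p = 0.00324), and *Tagln*, the smooth muscle protein transgelin, at 401 and 544 against 205.5 and 205.1 (1.20 ± 0.20, adjusted p = 0.0138). *Pcsk5* was lower in the *Eed* KO intestine, as in the controls (-1.46 ± 0.26, adjusted p = 0.0184). The ligand genes called there, *Tgfb2*, *Inhba* and *Mstn*, were all lower in the intestine. The comparisons share libraries, so no overlap between them is given.

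In the adult intestine 7 of the 9 genes passed the filter and 1, *Tgfb2*, was a DEG, lower in the libraries labelled EED-KO, beside 19.6% of all 15039 genes tested. It had 1993 and 2210 counts in the controls and 791 and 855 in the EED-KO, or 146 and 155 against 79.4 and 66.1 CPM (-1.05 ± 0.19, adjusted p = 0.00946 by edgeR). Its size was near the fold threshold, and it fell below 1 on the log2 scale without control replicate 2 (-0.998, adjusted p = 0.0325) or without EED-KO replicate 2 (-0.93, adjusted p = 0.0217). Under spike-in scaling it did not pass (-1.47, adjusted p = 0.06475). *Tgfb3* was at 84.2 and 100 CPM in the controls and 52.8 and 50.95 in the EED-KO (-0.83 ± 0.19, adjusted p = 0.0210), past the p threshold alone, which 23.5% of all genes passed. Both ligands were thus lower in every EED-KO library than in any control library. Of the 7 genes tested, 4 had groups that did not overlap, with *Tgfb1* and *Gdf10* higher in the EED-KO. The share of all genes without overlap was not computed.

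Makeup of the adult libraries differed between the groups. All 10 macrophage and leukocyte markers in the tables were DEGs and higher in the EED-KO, with sums of 717 and 1039 CPM in the controls and 21392 and 19474 CPM in the EED-KO, although the cells had been sorted by the reporter of a stromal Cre. Of the 4 enteric neural crest markers kept, *Elavl4*, a neuronal gene, was a DEG and higher (5.59, adjusted p = 0.000869 by edgeR). Of 8 endothelium markers 1 was a DEG, *Pecam1*, also higher (1.43, adjusted p = 0.00414), and the list median was 0.57. Of 7 immediate early genes 2 were higher, *Atf3* (2.71, adjusted p = 0.000276) and *Fosb* (1.78, adjusted p = 0.00919). Of 8 mesenchyme markers, 6 passed the filter and 3 fell, *Pdgfra*, *Col1a1* and *Col3a1*, and the sum of all 8 went from 8885 and 9189 CPM to 3734 and 2628 CPM. Per 1000 CPM of mesenchyme markers, *Tgfb2* read 16.4 and 16.85 CPM in the controls and 21.3 and 25.15 in the EED-KO, and *Tgfb3* read 9.47 and 10.9 against 14.1 and 19.4. Per 100 CPM of *Pdgfrb*, the gene whose promoter drives the Cre, *Tgfb2* read 89.9 and 125 in the controls and 89.0 and 71.25 in the EED-KO. *Tgfb3* read 51.9 and 80.95 per 100 CPM of *Pdgfrb* in the controls and 59.2 and 54.9 in the EED-KO. The sum is made up mostly of *Col1a1* and *Col3a1*, which are also TGF-beta targets and fell further than *Tgfb2* (-1.65 and -1.60). The markers *Vim* (-0.19, adjusted p = 0.532 by edgeR), *Foxf1* (-0.54, adjusted p = 0.165) and *Pdgfrb* (-0.65, adjusted p = 0.0624) had log2 fold changes nearer 0 than *Tgfb2* and did not pass. The direction of *Tgfb2* relative to the mesenchyme thus depended on the marker used.

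**Figure D5:**
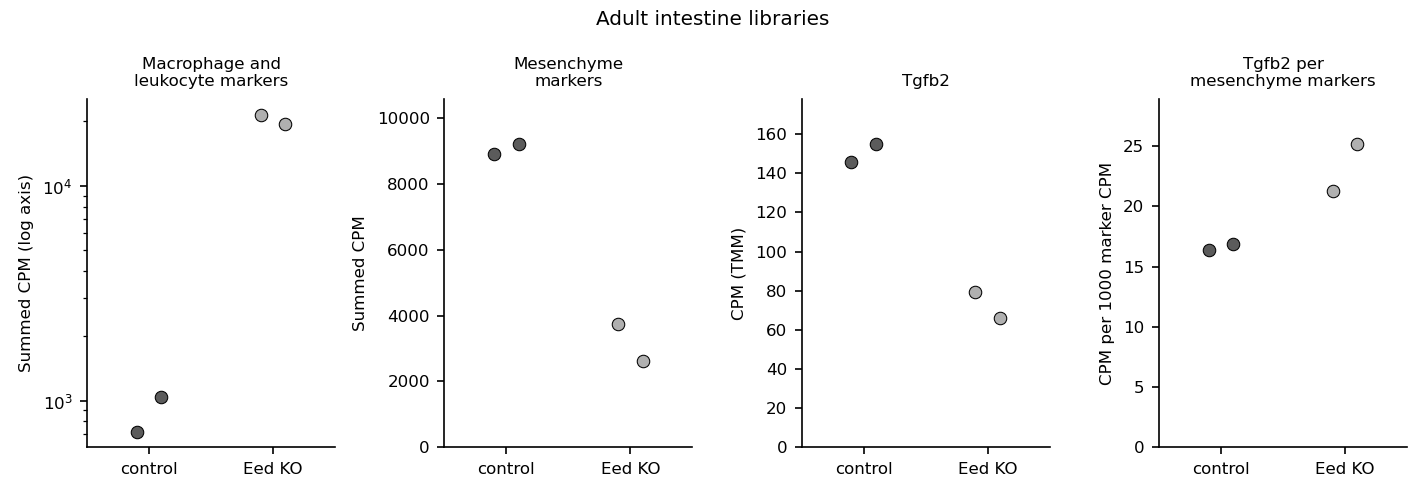
Adult intestine libraries, 2 labelled WT (control) and 2 labelled EED-KO (*Eed* KO). From left to right: summed CPM of macrophage and leukocyte markers on a log axis, summed CPM of mesenchyme markers, CPM of *Tgfb2*, and CPM of *Tgfb2* per 1000 CPM of mesenchyme markers. *Tgfb2* falls from 146 and 155 to 79.4 and 66.1 CPM, while its ratio to the mesenchyme markers reads 16.4 and 16.85 against 21.3 and 25.15.

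The remaining adult ligand genes had few counts or a wide spread. *Tgfb1*, which macrophages and other leukocytes express strongly, had 11 and 3 counts in the controls and 37 and 26 in the EED-KO (2.47 ± 0.81, adjusted p = 0.0675 by edgeR). *Gdf10* had 53 and 14 against 59 and 232 counts (2.30 ± 0.75, adjusted p = 0.0679), and it was called by DESeq2 (adjusted p = 0.0116), and by edgeR without control replicate 1 (3.59, adjusted p = 0.00998) or EED-KO replicate 1 (2.86, adjusted p = 0.0210). *Inhba* overlapped between the groups at 16.5 and 8.48 CPM against 10.5 and 23.0 (0.43 ± 0.46, adjusted p = 0.548). *Inhbb* had 60 and 18 counts against 0 and 31 (-1.18 ± 1.3, adjusted p = 0.545, and 0.0386 without EED-KO replicate 2, which leaves a lone library at 0), and *Gdf11* had 174 and 193 against 133 and 228 (0.24 ± 0.27, adjusted p = 0.570). *Inha* had at most 7 counts in any adult library and was not tested.

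The pathway lists showed many adult DEGs, in libraries that differ in cell makeup as described. Of 16 latency and activation genes, 2 rose and 8 fell. The 4 with the largest change were *Nrros*, which anchors latent TGF-beta on macrophages and microglia (10.0 and 15.3 CPM to 131 and 182.5), *Pcsk6*, a proprotein convertase (64.9 and 54.2 to 7.83 and 11.4), *Thbs1*, a matricellular activator of TGF-beta (110 and 90.8 to 338.5 and 600) and *Pcsk5* (259 and 231 to 65.4 and 49.25). Of 16 target genes, 3 rose and 7 fell, with a list median of 0.55 although more members fell than rose among the DEGs. Among the largest changes were those of *Cdkn1a* (66.6 and 61.4 CPM to 590 and 1232), *Tgif1*, a transcriptional repressor (31.3 and 28.7 to 124 and 174) and *Fn1*, which encodes fibronectin (578.5 and 341 to 133 and 127). Of the receptors, *Tgfbr1* rose from 61.7 and 66.5 CPM to 175 and 152 (1.35 ± 0.19, adjusted p = 0.00338 by edgeR), while *Tgfbr3* (-0.995), *Eng* (-0.86) and *Tgfbr2* (-0.69) were lower past the p threshold alone (adjusted p = 0.00986, 0.0190 and 0.0368). Of the transducers *Skil*, a negative regulator of Smad signalling, rose from 86.8 and 66.8 CPM to 362 and 472 (2.44 ± 0.24, adjusted p = 0.000754). The part of leukocytes and other cells in these changes was not tested.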

How the data were processed

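RNA-seq counts and ATAC-seq peaks were used as deposited. The authors trimmed reads with Trimmomatic 0.32, aligned RNA-seq reads to mm10 with STAR 2.5.1b and counted them on GENCODE vM4 genes with featureCounts, and these counts were deposited as whole numbers without normalization. For ATAC-seq the authors aligned reads with BWA, kept high-quality autosomal reads, pooled the 2 replicates of a condition and called broad peaks with MACS2, so each deposited peak carries a fold enrichment ratio and a -log10 q but no replicate values. Embryonic libraries were stranded and adult libraries were not, so overlapping antisense reads could not be separated in the adult.

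Counts were scaled by TMM, filtered with filterByExpr and tested with edgeR 4.0.16 (quasi-likelihood, Benjamini-Hochberg over all genes) in R 4.3.3. The 8 embryonic libraries were fitted with 4 group means and the 4 adult libraries apart, and the fit was tested on simulated data. Alternatives were DESeq2 1.42.0, its size factors, spike-in scaling, 1 RUVg factor, no filter, a replicate block, only the compared libraries, and each library left out. The interaction was coded as the *Eed* KO effect in the stomach minus that in the intestine. TPM used the gene lengths of the adult files. Promoter sequences came from RefSeq (GRCm38.p6), and 8 of the 9 genes matched. The members, the pathway and marker lists and their tests were chosen with earlier results of these data known. Named pathway genes are the DEGs of each list, or the 4 largest where more than 6 passed, of which 1 is not reported here. The likeness measure used a prior count of 0.5.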

Additional observations from a re-analysis of the deposited data

How the results depend on the processing

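Spike-in scaling changed the counts most: 1 member (*Mstn*) in place of 2 between the control organs and in place of 3 between the *Eed* KO organs, 9 in place of 1 in the stomach and 8 in place of 0 in the intestine, where the median of all genes moved by 2.39 and 1.85 on the log2 scale. The interaction called 1 member (*Inhba*) in place of 0 with DESeq2 size factors (adjusted p = 0.1997), without the low count filter (0.0196) and under the replicate block (0.108). It also did so under a block by assumed embryo pool (0.0359), with DESeq2 (0.00561) and with 1 RUVg factor (0.00655). The pools were assumed from replicate numbers, since neither labels nor methods pair the organs. In the adult, 3 members in place of 1 were called without the filter, and 2 with DESeq2 and with 1 RUVg factor, while spike-in scaling called 1, *Gdf10*, in place of *Tgfb2*. Leaving out 1 library at a time gave 1 member in every case between the control organs, 1 to 2 between the *Eed* KO organs, 0 to 1 for the interaction and 0 to 2 in the adult. No paired block changed another count of called members. Same-numbered libraries correlated in their deviations by 0.23 between the control organs, 0.61 between the *Eed* KO organs and -0.048 in the adult, and by 0.031 to 0.12 between embryonic groups of different genotype.

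Over all genes, the replicate block moved the interaction from 75 to 187 DEGs and the block by assumed pool to 350. DESeq2 gave 207, 1 RUVg factor 239, no filter 237 and spike-in scaling 20. The block by assumed pool gave 1131 in place of 714 between the *Eed* KO organs. Between genotypes in the intestine, 423 became 800 without the filter, 685 with DESeq2, 244 with only the compared libraries and 74 to 203 without each of 3 libraries. With spike-in scaling the numbers were 155 between the control organs, 115 between the *Eed* KO organs, 15438 in the stomach and 13688 in the intestine. The numbers without 1 library were as low as 370 between the control organs, 304 between the *Eed* KO organs, 344 in the stomach and 27 for the interaction, and 397 with only the *Eed* KO libraries. The split of higher against lower DEGs moved with the scaling. It was 273 to 549 between the control organs and 70 to 85 with the spike-in, 237 to 477 between the *Eed* KO organs and 20 to 95 with the spike-in, and 1856 to 1088 in the adult and 1154 to 1321 with the spike-in. In the stomach it was 785 to 131, 15419 to 19 with the spike-in and 368 to 340 with 1 RUVg factor. In the intestine it was 386 to 37, 13664 to 24 and 300 to 187, and for the interaction 44 to 31, 20 to 0 and 104 to 135. The causes were not tested. A minimum -log10 q of 5 removed only the *Mstn* promoter peaks of the 2 intestine lists. Low counts limit *Mstn*, *Inhbb* and *Inha*, and the peak lists allow no test.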
